A study of Rattus norvegicus with 12 samples.

Results

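The conjugating enzymes of the liver were compared between cystic PCK livers and control livers. They are the UDP-glucuronosyltransferases (UGT), the cytosolic sulfotransferases (SULT) and the glutathione S-transferases (GST). Members were the probe sets whose platform gene symbol starts with Ugt1, Ugt2 or Ugt3, with Sult and a digit, or with the name of a GST class and a digit. This rule found 48 of the 16592 named genes on the arrays, 16 UGT, 10 SULT and 22 GST genes, and no Ugt3 gene. RNA came from the livers of 6 PCK and 6 Sprague Dawley control rats, all male, 10 weeks old, on a standard diet, and each liver was hybridised to an Affymetrix array. The labels give the PCK rats as Crj:CD/SD, a Sprague Dawley stock of Charles River Japan, and the controls as Sprague Dawley with no stock. The PCK rat is a model of autosomal recessive polycystic kidney disease, carries a Pkhd1 mutation and develops bile duct and kidney cysts. Disease and differences between the rat stocks cannot be told apart in this design.

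Conjugation is the step of hepatic detoxification that makes lipophilic compounds soluble enough for excretion. UGT enzymes of the endoplasmic reticulum attach glucuronic acid from UDP-glucuronate to bilirubin, steroids, bile acids, phenols and drugs. SULT enzymes transfer sulfate from the donor PAPS to phenols, thyroid hormone and steroids, and GST enzymes join glutathione to electrophiles or use it to reduce peroxides. In rats, inherited loss of single enzymes is known: Gunn rats lack working UGT1 enzymes and are jaundiced, and some Wistar colonies hold animals that cannot conjugate androsterone for want of a UGT2B enzyme.

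The UGT1 genes are 1 locus with many starts. In the RefSeq annotation of assembly GRCr8, the 7 UGT1 members have 7 different starts on chromosome 9 and share 1 end, since each first exon is spliced to the same later exons. Because these genes differed from each other in direction, the 250 bases before the start of Ugt1a1, Ugt1a2 and Ugt1a3 are shown, with the same stretch of Ugt2b, the member with the largest difference. All 4 are from RefSeq (GRCr8, the Brown Norway reference, not PCK or Sprague Dawley rats), 5′ to 3′ on the plus strand. Capitals mark matches to the HNF1 half-site GTTAAT, which reads ATTAAC on the other strand, or to the TATA box TATAAA.
Ugt1a1, chr9:96248893-96249142: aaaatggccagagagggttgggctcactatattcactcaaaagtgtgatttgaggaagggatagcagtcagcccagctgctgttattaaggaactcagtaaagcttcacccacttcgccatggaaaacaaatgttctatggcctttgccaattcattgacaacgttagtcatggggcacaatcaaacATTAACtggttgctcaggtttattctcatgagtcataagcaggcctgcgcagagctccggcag
Ugt1a2, chr9:96238769-96239018: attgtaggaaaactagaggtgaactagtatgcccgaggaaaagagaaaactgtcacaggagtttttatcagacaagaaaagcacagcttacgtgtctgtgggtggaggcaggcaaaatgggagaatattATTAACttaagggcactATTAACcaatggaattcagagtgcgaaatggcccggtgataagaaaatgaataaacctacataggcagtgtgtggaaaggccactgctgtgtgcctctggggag
Ugt1a3, chr9:96227884-96228133: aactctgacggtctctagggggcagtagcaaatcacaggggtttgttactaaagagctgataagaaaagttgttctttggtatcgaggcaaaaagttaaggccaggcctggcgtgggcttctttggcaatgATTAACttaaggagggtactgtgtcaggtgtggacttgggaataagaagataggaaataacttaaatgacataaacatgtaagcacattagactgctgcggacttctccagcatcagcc
Ugt2b, chr14:20985199-20985448: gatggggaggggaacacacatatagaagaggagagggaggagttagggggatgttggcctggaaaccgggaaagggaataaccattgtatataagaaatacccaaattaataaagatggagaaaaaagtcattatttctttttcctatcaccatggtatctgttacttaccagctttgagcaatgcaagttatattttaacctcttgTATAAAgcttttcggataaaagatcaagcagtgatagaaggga
HNF1 is a hepatocyte transcription factor known to act at UGT promoters. Its half-site, searched on both strands, was present in 4 of the 6 UGT1 promoters of the table, against 6.46% of the 27457 promoters of the same length, and Ugt1a1, Ugt1a2 and Ugt1a3 all hold it although they differed in direction. The other motifs were likewise searched on both strands, at any position of the 250 bases. The letters TATAAA stood in 13.1% of all promoters and in 9 of the 41 member promoters, Ugt2b among them. The core of the antioxidant response element, TGACNNNGC, which NRF2 binds, was found in 4 of 18 GST promoters, those of Gsta5, Gstm5, Gstm7 and Gstp1, against 10.2% of all promoters. Over all 41 member promoters, the HNF1 half-site stood in 7 and this core in 4. A match is a run of letters and shows no binding.

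With limma, 22 of the 48 members changed, 7 higher and 15 lower in PCK livers. Over all genes, 17.4% were called higher and 21.0% lower, together 38.3%, while 14.6% of the members were higher and 31.2% lower. The median difference of the members was -0.015 (log2, PCK minus control), beside -0.007 over all genes. Large differences made up more of the families: 6 of 48 members (12.5%) differed at least 2-fold and were called, against 1.57% of all genes. Of these, 4 rose, Ugt2b, Gstm3, Gstt3 and Ugt1a2 (1.01% of all genes), and 2 fell, Sult2a1 and Ugt1a3 (0.561%). These shares are not matched for brightness: 7862 of the 16592 genes, but 11 of the 48 members, averaged below 5.66, the median of the table. No gene that dim differed by more than 0.73. In 15 members (31.2%) the 6 PCK values lay wholly above or wholly below the 6 control values, as in 21.6% of all genes. UGT genes were lower in 8 of 16 and higher in 2, SULT genes lower in 3 of 10 and higher in 0, and GST genes higher in 5 of 22 and lower in 4. No test of a whole family was made. Values are log2 signals, so 1 unit is a doubling; signals of different probe sets are not on a common scale and are not ranked.

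**Figure D1:**
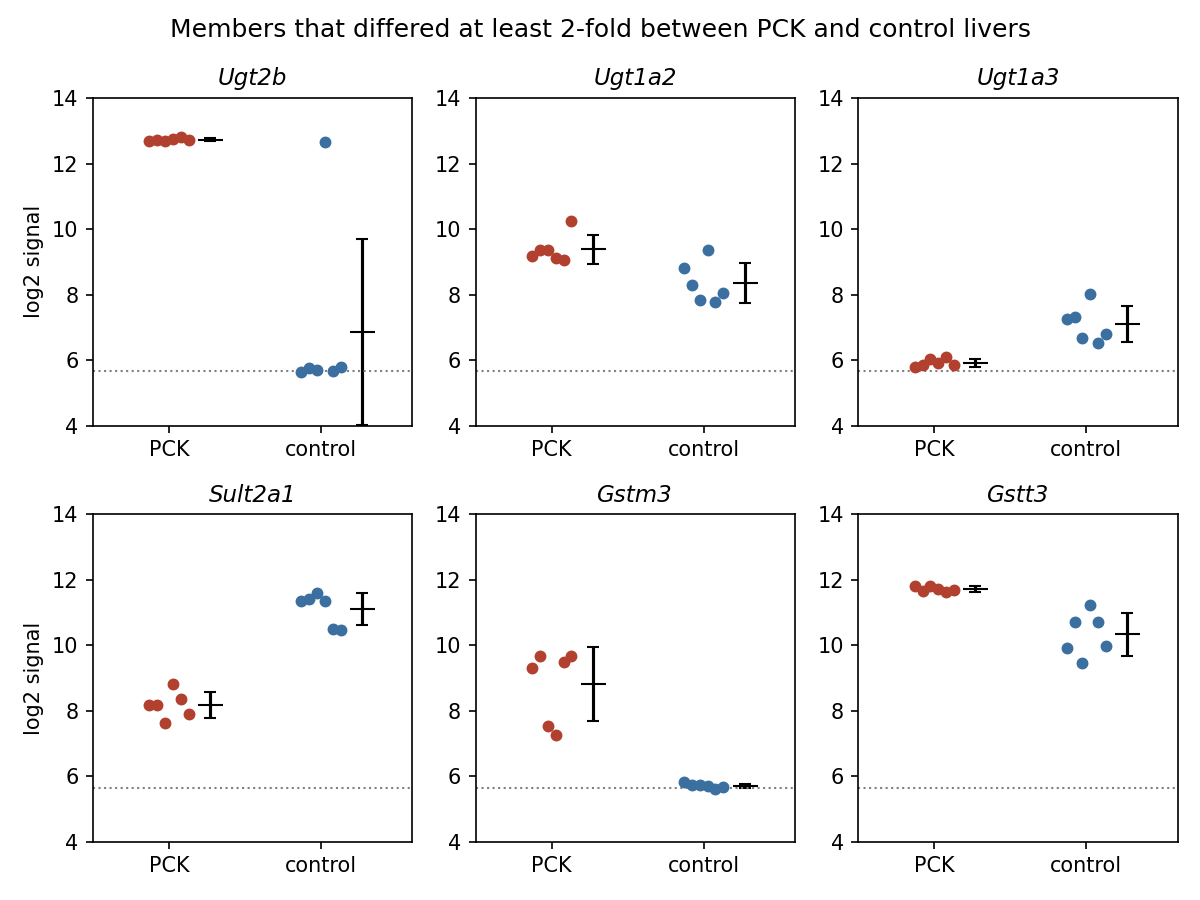
Log2 signal of the 6 members that changed at least 2-fold, a point for each animal, PCK left and control right, with the mean and SD of 6 beside the points and the median of the table (5.66) dotted. Ugt2b has 1 control liver, at 12.65, beside the PCK livers at 12.68 to 12.81, and 5 at 5.64 to 5.79, while Sult2a1, Gstm3, Gstt3 and Ugt1a3 separate the groups in every animal.

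Ugt2b, listed in RefSeq with the older name Ugt2b2, stood apart from all other members. Its signal was 12.68, 12.73, 12.68, 12.75, 12.81 and 12.71 in PCK livers 1 to 6, against 5.64, 5.75, 5.70, 12.65, 5.68 and 5.79 in control livers 1 to 6. All PCK livers and control 4 thus had nearly the same high signal, and the other 5 control livers lay beside the median of the table, 5.66, where signal cannot be told from background. The mean difference was 5.86 ± 1.1 (log2, SE; limma adjusted p = 0.00146, n = 6 each). Without control 4 it was 7.01, so the fitted size depends on that animal, and on 5 control values that may be background. No intermediate value occurred among the 12 animals. The SD was 0.051 in PCK and 2.8 in control livers, while the fit takes 1 spread for both groups. The SE and adjusted p of Ugt2b therefore describe such a split poorly.

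The genes beside Ugt2b on chromosome 14 did not share this pattern. In the order of the annotation, Ugt2a1 and Ugt2a3 precede it and Ugt2b5, Ugt2b37, Ugt2b36, Ugt2b7, Ugt2b1 and Ugt2b34 follow. In control 4 the next gene, Ugt2b5, was at 11.87 within a control range of 11.75 to 11.94, and Ugt2a3, the gene before, was at 11.07 where the other controls were at 10.53 to 10.74. Of the 9 UGT2 members 4 fell. Ugt2b37 averaged 11.64 ± 0.11 in PCK livers and 12.47 ± 0.14 in control livers (SD, n = 6 each), a difference of -0.83 ± 0.069 (SE; limma adjusted p = 5.28e-06), with no overlap of the groups. Ugt2a3, whose human counterpart conjugates bile acids, was 10.12, 10.33, 9.27, 10.21, 10.18 and 10.13 in PCK livers, against 10.72, 10.68, 10.74, 11.07, 10.53 and 10.72 in control livers (-0.71; limma adjusted p = 0.00537). Ugt2b5, now named Ugt2b15, fell by 0.20 (adjusted p = 0.00255). Ugt2b1, an enzyme of testosterone and morphine glucuronidation, was 10.65, 10.80, 8.85, 10.30, 10.34 and 10.58 in PCK livers, against 10.78, 10.90, 11.12, 11.62, 11.50 and 10.77 in control livers. The groups met at their edges. Its difference of -0.86 passed narrowly (limma adjusted p = 0.0468) and did not pass when any 1 of 9 arrays was left out, with an adjusted p of up to 0.0941. PCK 3 was the lowest animal for Ugt2b1, at 8.85, and for Ugt2a3, at 9.27, and without it the differences were -0.58 and -0.55. Ugt2b34, now Ugt2b10 (0.18; adjusted p = 0.0508), and Ugt2b36, now Ugt2b35 (0.07; adjusted p = 0.253), did not pass, with 95% intervals of 0.04 to 0.33 and -0.03 to 0.17. Ugt2a1, known from olfactory epithelium, and Ugt2b7 lay below the median of the table in all animals. How far the probe sets of the UGT2 cluster share signal is not known here.

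**Figure D2:**
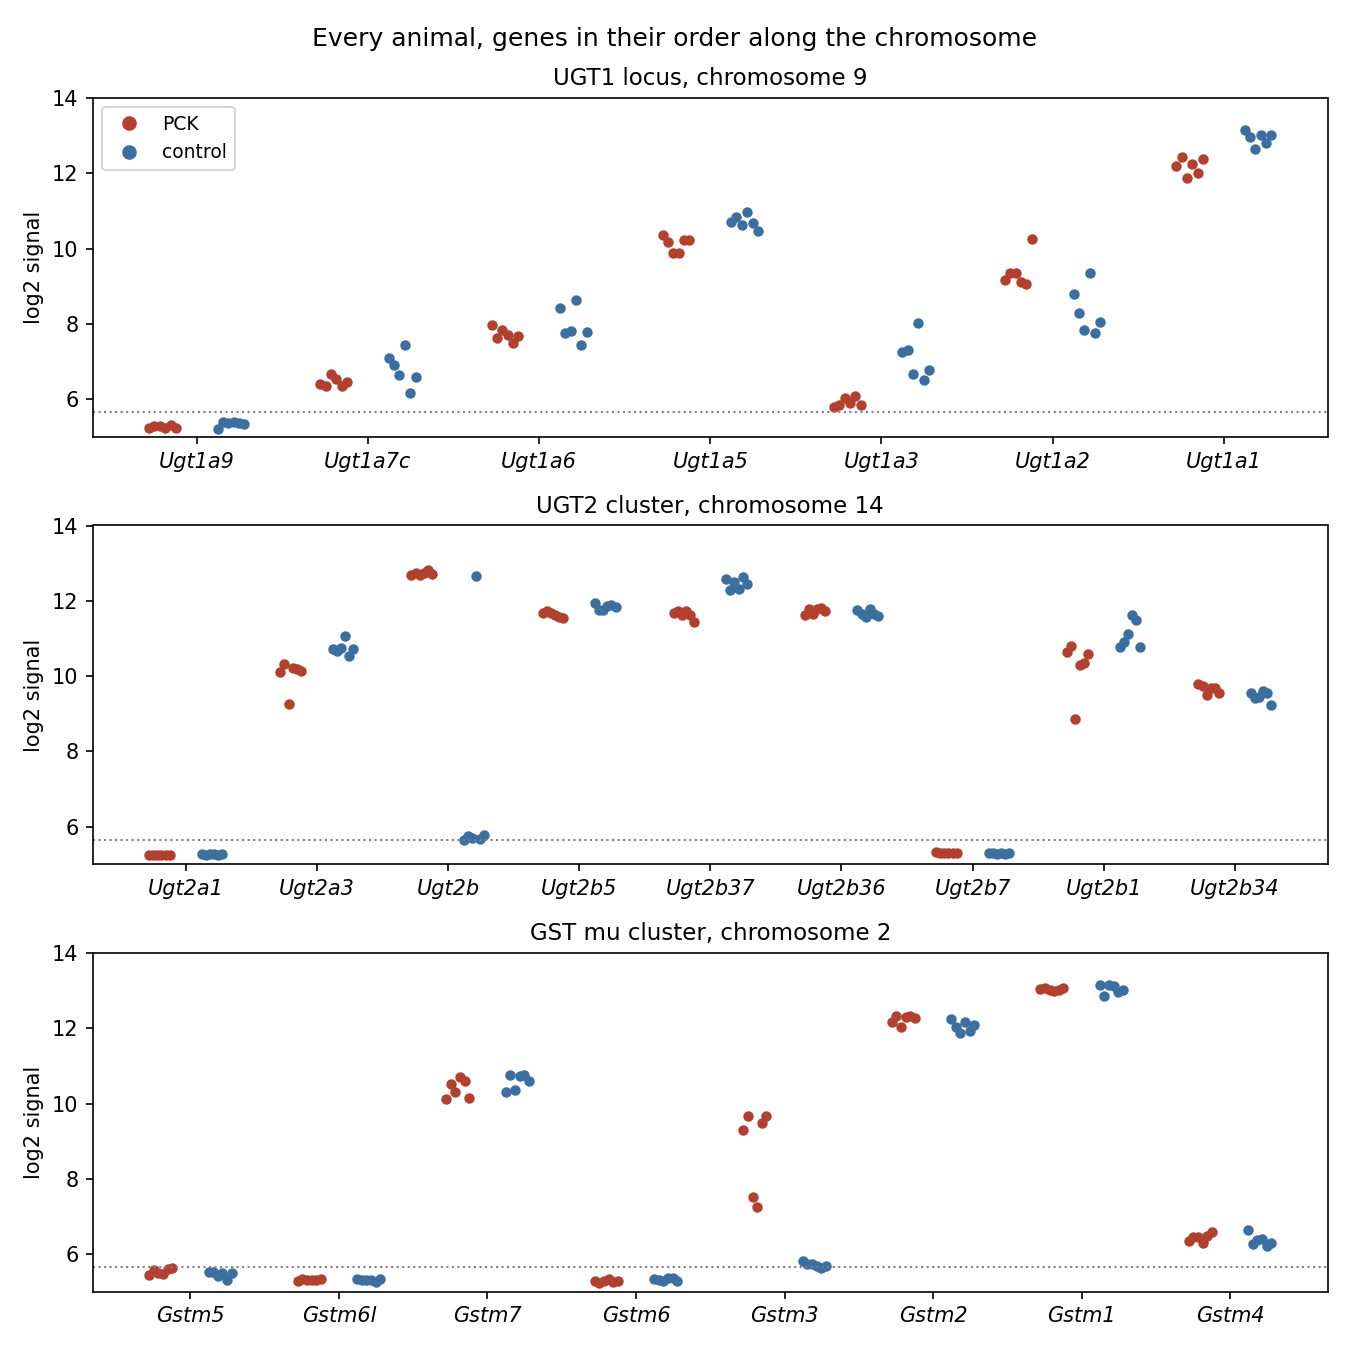
Log2 signal of every animal (PCK left, control right of each gene) for the UGT1 locus, the UGT2 cluster and the GST mu cluster, genes in their order along the chromosome, the median of the table dotted. Ugt2b (5.86), Gstm3 (3.10), Ugt1a3 (-1.18) and Ugt1a2 (1.03) differ by more than 1 unit between the group means, and the other genes shown by less.

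The UGT1 locus went in both directions. Ugt1a1, the bilirubin-conjugating enzyme, had a lowest, median and highest signal of 11.87, 12.22 and 12.44 in PCK livers, against 12.65, 12.99 and 13.16 in control livers. The highest PCK liver was below the lowest control liver, by a mean difference of -0.75 ± 0.11 log2 units (SE; limma adjusted p = 0.000276), a 1.68-fold fall. Ugt1a5, of the same bilirubin cluster, fell by 0.59 (adjusted p = 0.000671), again with no overlap. Ugt1a3 was 5.79, 5.84, 6.04, 5.91, 6.09 and 5.84 in PCK livers, against 7.26, 7.31, 6.68, 8.03, 6.51 and 6.79 in control livers. All PCK values lay close to the median of the table, where signal cannot be told from background, and the difference was -1.18 ± 0.22 (adjusted p = 0.00144). Ugt1a2 moved the other way, at 9.18, 9.35, 9.35, 9.12, 9.06 and 10.25 in PCK livers and 8.80, 8.30, 7.85, 9.35, 7.77 and 8.06 in control livers. Only control 4 reached the PCK values, PCK 6 exceeded all others, and the rise was 1.03 ± 0.29 (limma adjusted p = 0.0156), 0.86 without PCK 6.

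The remaining UGT1 genes did not pass, or passed narrowly. Ugt1a6, which conjugates planar phenols, differed by -0.26 (adjusted p = 0.313; 95% interval -0.67 to 0.15) and Ugt1a7c, known for conjugating metabolites of aromatic hydrocarbons, by -0.35 (adjusted p = 0.149; -0.74 to 0.04). Ugt1a9, below the median of the table, had a difference of -0.08 at an adjusted p of 0.0464 that did not pass when any 1 of 10 arrays was left out, with an adjusted p of up to 0.095. The SD was 0.12 in PCK and 0.56 in control livers for Ugt1a3, 0.17 in PCK and 0.45 in control livers for Ugt1a6, and 0.13 in PCK and 0.44 in control livers for Ugt1a7c. For Ugt1a1 it was 0.22 in PCK and 0.18 in control livers, and for Ugt1a5 0.19 in PCK and 0.17 in control livers, so the wider spread of control livers did not extend to the whole locus. Control 4 was the highest control in 5 of the 6 UGT1 members above the median of the table, and control 5 the lowest in 4. Where the probes lie within the shared and unshared exons is not known here, so signal of 1 UGT1 gene on the probes of another was not tested.

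Among sulfotransferases Sult2a1 fell most. It conjugates hydroxysteroids such as DHEA and bile acids, and in rats it is known to be higher in females. It was 8.18, 8.19, 7.64, 8.81, 8.35 and 7.89 in PCK livers, against 11.34, 11.41, 11.60, 11.35, 10.50 and 10.46 in control livers. The groups lay more than 1 unit apart and control 5 and 6 were the lowest controls. PCK minus control came to -2.93 ± 0.25 log2 units (SE; limma adjusted p = 5.66e-06), a 7.64-fold fall. Sult2al1, now Sult2a6 and the gene before Sult2a1 among the members on chromosome 1, was 10.50, 10.57, 9.73, 9.98, 10.44 and 10.63 in PCK livers, against 10.34, 10.58, 9.49, 10.20, 10.30 and 10.18 in control livers. The groups lay together and the difference, 0.13, did not pass (limma adjusted p = 0.669; 95% interval -0.31 to 0.56). The estrogen sulfotransferase Sult1e1 was 12.64, 12.62, 12.68, 12.72, 12.55 and 12.52 in PCK livers, against 13.14, 13.12, 13.11, 13.08, 12.84 and 13.04 in control livers. It was lower in every PCK liver than in any control (-0.43 ± 0.052; adjusted p = 7.19e-05). Sult1c3, the hydroxyarylamine enzyme formerly called ST1C1, fell by 0.22 (adjusted p = 0.00235). Sult1e1 and Sult1c3 are known as male-predominant in rat liver. The phenol enzyme Sult1a1 (-0.06; adjusted p = 0.055) and Sult1b1, which acts on thyroid hormone (0.06; adjusted p = 0.33), did not pass, with intervals of -0.12 to -0.01 and -0.04 to 0.16. Sult1c2, Sult1d1 and Sult5a1 were below the median of the table and Sult2b1, the cholesterol sulfotransferase, at it; none of them passed.

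**Figure D3:**
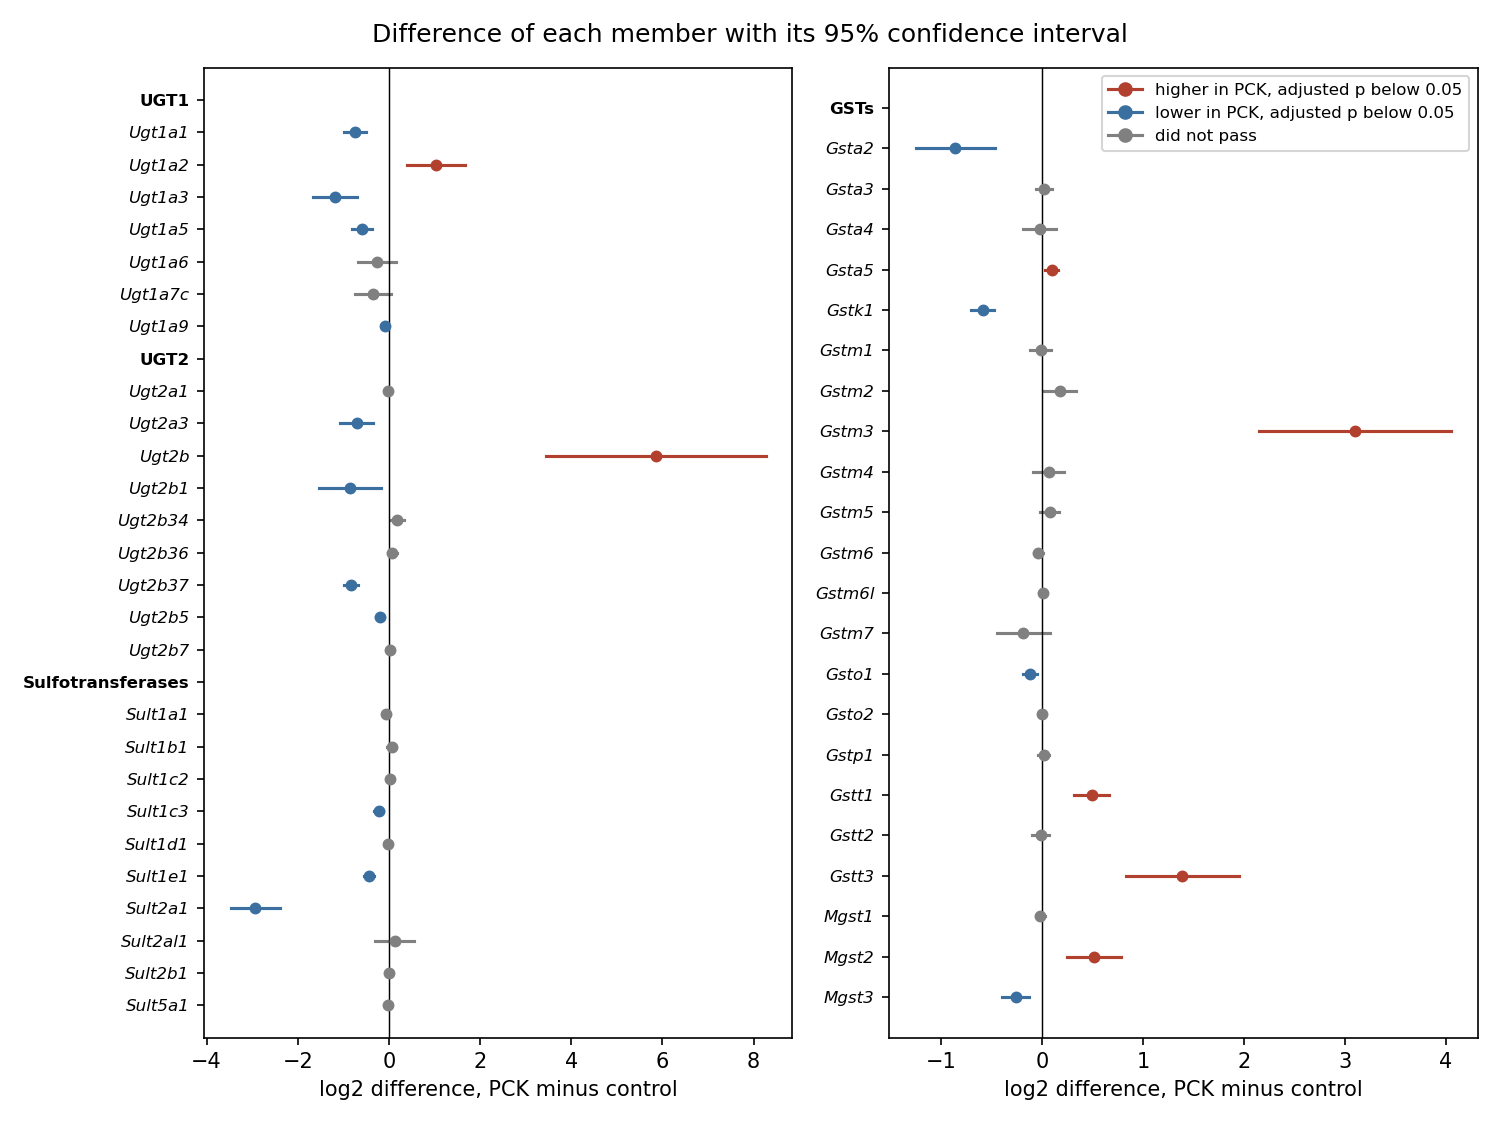
Log2 difference, PCK minus control, of all 48 members with 95% confidence intervals, red where called higher, blue where called lower and grey where not passed; the axes of the panels differ. Most members lie within 0.5 of 0, and Ugt2b (5.86), Gstm3 (3.10) and Sult2a1 (-2.93) lie farthest out.

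Of the 22 GST genes 13 did not pass, and those that changed went either way. The shares called, 22.7% higher and 18.2% lower, were near those of all genes, 17.4% and 21.0%. Gstm3, a mu-class gene also listed as GstYb4, was 9.30, 9.66, 7.53, 7.25, 9.49 and 9.67 in PCK livers, against 5.82, 5.73, 5.73, 5.70, 5.63 and 5.68 in control livers. PCK 3 and 4 had intermediate values, all PCK values exceeded all controls, and the controls lay at the median of the table. The rise was 3.10 ± 0.43 (log2, SE; limma adjusted p = 0.000197), with a size that depends on a control level that cannot be told from background. The other 7 mu-class genes did not pass, among them the bright Gstm1 at 13.04 ± 0.034 in PCK and 13.05 ± 0.12 in control livers (SD, n = 6 each) and Gstm2, the neighbour of Gstm3, at 12.24 ± 0.12 and 12.06 ± 0.14 (adjusted p = 0.0744). Mu-class genes are close copies of each other, and how far their probe sets share signal is not known here.

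The theta class rose in 2 of 3 genes. Gstt3 was 11.80, 11.65, 11.82, 11.73, 11.63 and 11.69 in PCK livers, against 9.93, 10.72, 9.45, 11.22, 10.71 and 9.98 in control livers. PCK livers were uniform, with an SD of 0.079 against 0.65 in controls, and control 4 came nearest to them. The rise was 1.39 ± 0.25 (log2, SE; limma adjusted p = 0.0013). Its neighbour Gstt1, which acts on haloalkanes, lay between 9.69 and 9.90 in PCK livers and between 9.05 and 9.49 in control livers, a rise of 0.49 units (adjusted p = 0.000416). Gstt2 did not pass (-0.01; 95% interval -0.10 to 0.07).

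In the alpha class, the main GST class of hepatocytes, Gsta2 fell. It was 10.27, 10.41, 10.35, 10.52, 10.08 and 10.26 in PCK livers, against 11.21, 11.38, 11.50, 11.46, 11.13 and 10.33 in control livers. Control 6 lay inside the PCK range and the other controls above it. The fitted difference of -0.86 ± 0.18 (SE; limma adjusted p = 0.00277) became -1.02 without control 6. Gsta3, now Gsta1, and Gsta4, which clears the lipid peroxidation product hydroxynonenal, did not pass, with intervals of -0.06 to 0.10 and -0.19 to 0.14. Gsta5, now Gsta3, lay below the median of the table and differed by 0.10 (adjusted p = 0.0196). Gstp1, the placental form used as a marker of preneoplastic foci in rat liver and known from bile duct epithelium, lay between 5.66 and 5.78 in PCK and between 5.64 and 5.74 in control livers, at the median of the table (adjusted p = 0.64; 95% interval -0.04 to 0.07).

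Of the other GST classes Gstk1, the kappa enzyme of mitochondria and peroxisomes, fell. It averaged 11.51 ± 0.13 in PCK and 12.10 ± 0.028 in control livers (SD, n = 6 each), a difference of -0.59 ± 0.051 (SE; limma adjusted p = 7.11e-06) with no overlap. The omega gene Gsto1, a thiol transferase, fell by 0.12 (adjusted p = 0.0088). Among the membrane-bound microsomal genes, Mgst2, which can make leukotriene C4, rose by 0.51 (adjusted p = 0.00599) and Mgst3 fell by 0.26 (adjusted p = 0.00545), each with no overlap, while the bright Mgst1 did not pass (-0.02; 95% interval -0.06 to 0.03). Over all 3 families 26 members did not pass, with differences from -0.35 to 0.18, and in 20 of them the 95% interval stayed within 0.25 units of 0.

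Some genes that supply the cosubstrates differed, where 21.0% of all genes were called lower and 17.4% higher. Of 6 measured genes listed for UDP-glucuronate supply 3 fell and 0 rose. These were Ugp2, which makes UDP-glucose (-0.81 ± 0.085; limma adjusted p = 2.84e-05), Ugdh, which oxidises it to UDP-glucuronate (-0.79), and the nucleotide sugar carrier Slc35a3 (-0.68). The listed carriers Slc35d1 (-0.12, limma adjusted p = 0.254) and Slc35b1 (-0.24, limma adjusted p = 0.13) did not pass. Ugdh ran from 9.27 to 9.65 in PCK livers and from 10.11 to 10.41 in control livers, with no overlap. Of 10 genes of sulfate and PAPS supply 3 rose and 3 fell. Slc13a1, Papss1 and Slc35b2 rose by 0.06, 0.25 and 0.15, with group means of 5.29 to 6.03, near the median of the table. The falls were in Slc26a1 (-0.29), Bpnt1 (-0.33) and the PAPS synthase Papss2, all farther above that median. Papss2, the best known gene of the list, fell by 0.23 (adjusted p = 0.0252). Of 10 genes of glutathione supply 5 fell and 2 rose. The subunits of the rate-limiting glutamate-cysteine ligase, Gclc and Gclm, each fell by 0.67 (limma adjusted p = 1.32e-06 and 5.59e-05), Oplah, which recycles oxoproline, fell by 0.58 (adjusted p = 2.43e-05), and glutathione synthetase, Gss, rose by 0.50 (adjusted p = 0.000557).

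Some genes of later steps and transport also differed, where 38.3% of all genes were called (17.4% higher, 21.0% lower). Of 8 genes of mercapturate formation 2 fell and 1 rose, and Nat8, which acetylates cysteine conjugates, was at 6.39 ± 0.23 in PCK and 8.20 ± 0.58 in control livers (SD, n = 6 each; -1.81; limma adjusted p = 0.000143). Of 5 deconjugating enzymes, beta-glucuronidase, Gusb, rose by 0.62 and steroid sulfatase, Sts, fell by 0.88, and the other 3 did not pass. Of 9 measured export and uptake genes 3 rose and 5 fell. Abcc3, the basolateral pump that returns glucuronides to blood, was 7.17, 7.26, 6.98, 6.74, 7.46 and 8.13 in PCK livers, against 5.93, 5.90, 5.88, 6.12, 6.17 and 5.84 in control livers. The groups did not overlap, and the rise was 1.32 ± 0.19 (adjusted p = 0.000281).

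**Figure D4:**
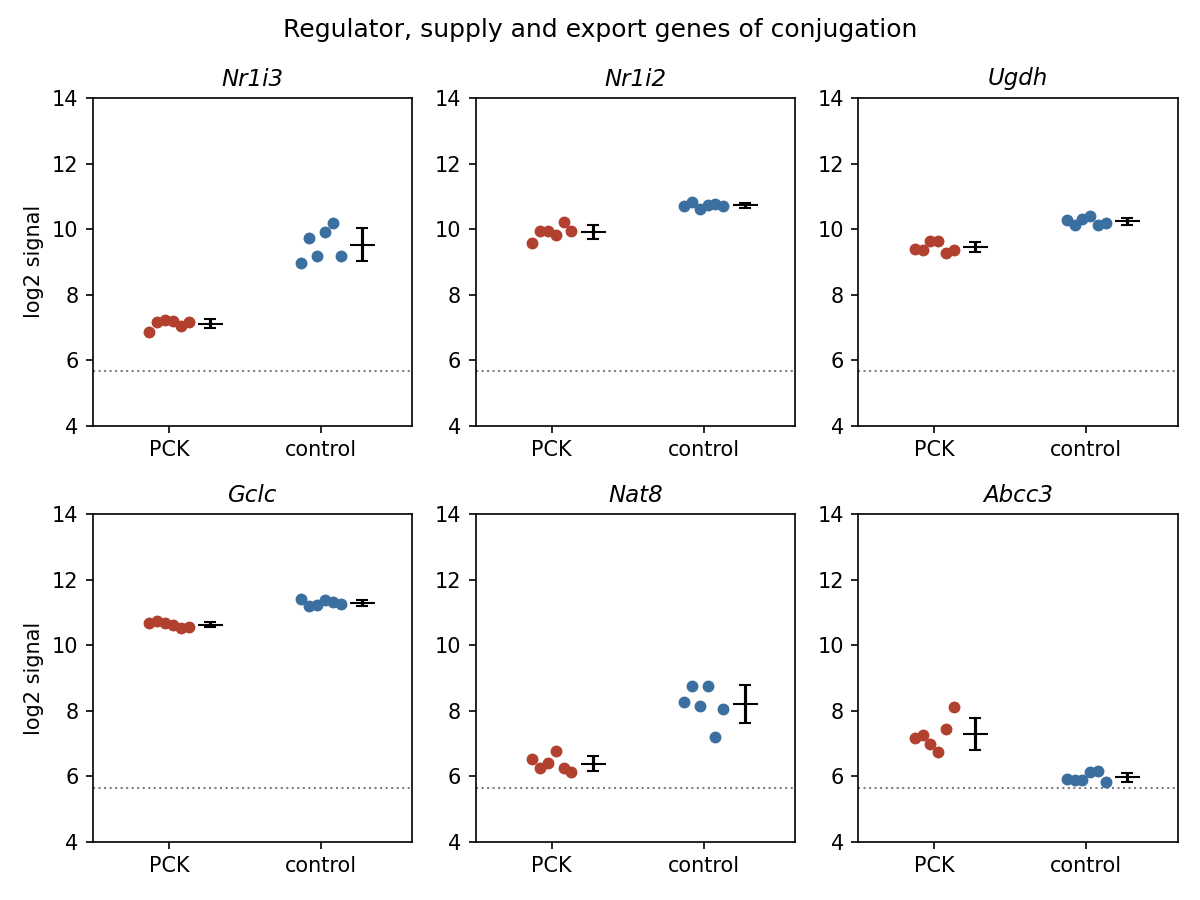
Log2 signal of 6 genes around conjugation, a point for each animal, PCK left and control right, with mean and SD of 6 and the median of the table dotted. Nr1i3, Nr1i2, Ugdh, Gclc and Nat8 lie lower and Abcc3 higher in every PCK liver than in any control liver.

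Of 18 measured regulators of these enzymes 8 fell and 1 rose, where 21.0% of all genes were called lower and 17.4% higher. The least certain of the 8 falls passed narrowly (limma adjusted p = 0.0499). Nr1i3, the constitutive androstane receptor, a xenobiotic sensor known to induce UGT, SULT and GST genes, was 6.86, 7.17, 7.22, 7.20, 7.05 and 7.16 in PCK livers, against 8.97, 9.72, 9.18, 9.92, 10.20 and 9.18 in control livers. The groups were well apart, with a difference of -2.42 ± 0.20 (log2, SE; limma adjusted p = 4.55e-06). The pregnane X receptor, Nr1i2, fell by 0.81 (adjusted p = 3.53e-05), the estrogen receptor Esr1 by 0.61, the bile acid receptor Nr1h4 by 0.59 and the dioxin receptor Ahr by 0.50. Nfe2l2, which encodes NRF2, rose by 0.20 (adjusted p = 0.0023), and 12 reference targets of it went both ways, 4 higher and 6 lower. Among them Aldh1a1 rose by 1.01, Me1 by 0.98, Hmox1 by 0.62 and Ephx1 by 0.52. Besides Gclc and Gclm, Txnrd1 fell by 0.64, Akr7a3 by 0.58 and Srxn1 by 0.53. Nqo1, the best known target, had a difference of 0.21 and did not pass (adjusted p = 0.262).

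Several markers of other cells differed between the groups. The counts below stand beside 17.4% of all genes called higher and 21.0% called lower. In bulk liver, fewer cells of a type and less RNA per cell cannot be told apart. Of 9 measured bile duct markers 8 rose and 0 fell, with a summed signal, on the log2 scale, of 9.52 to 10.00 in PCK and 8.92 to 8.97 in control livers. The control means of the 8 ran from 5.25 (Tspan8) to 5.94 (Epcam). That is near the median of the table, where signal cannot be told from background, so the control sum may be largely background. Of 7 macrophage markers 6 rose, with sums of 12.67 to 13.05 in PCK and 11.42 to 12.15 in control livers. Of 7 stellate and fibroblast markers 5 rose and 1 fell, with sums of 11.11 to 11.53 in PCK and 9.67 to 10.45 in control livers. Bright probe sets weigh most in a sum, in PCK livers Lyz2 (mean 11.29, control 8.94) and Dcn (mean 10.34, control 8.33). Cd163 (-0.08) and Col3a1 (0.31) did not pass. A separated sum thus does not show that every marker of a cell type moved. Of 9 hepatocyte markers 1 rose and 3 fell, and the sums overlapped, at 16.55 to 16.59 in PCK and 16.57 to 16.60 in control livers; several are at the top of the signal range. Of 11 pericentral hepatocyte genes 7 fell and 0 rose, and of 11 periportal genes 4 fell and 1 rose. Of 8 male-biased liver genes 7 fell and 0 rose, with sums of 14.11 to 14.46 in PCK and 15.22 to 15.39 in control livers, and of 6 female-biased genes 1 rose and 1 fell. The part of cell composition, zonation or sex-biased regulation in the differences above was not tested.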

How the data were processed

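Liver RNA was isolated with Trizol, per the labels' protocols. The table the authors deposited holds 19239 probe sets on 12 Affymetrix arrays, with values from 5.14 to 13.98 that were read here as log2 signals. Sorted, the 12 columns hold the same values, that is, every array had been given 1 distribution before deposit. How probes were summarised is not given in the sources used here, nor is the array design, and there are no detection calls. A difference in total RNA between livers cannot be seen after such a step. The platform's annotation named 16592 probe sets with 1 symbol and 2647 with none, and symbols are printed as it gives them. The number in a probe set's name was matched to RefSeq gene IDs (GRCr8): 16453 of the named probe sets matched, 13094 with the same symbol, and 47 of 48 members matched (6 under another current symbol). Promoters of 41 members were in the RefSeq table.

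limma 3.58.1 (R 4.3.3; lmFit and eBayes, 2-sided) was run on the deposited values of all 12 arrays, with Benjamini-Hochberg adjustment over 16592 genes, a threshold of 0.05 and no filter. SE is the moderated standard error. The fit was tested on simulated data with 200 changed genes. Replicates are biological according to the labels, and precision is limited by the 6 arrays of each group. Groups and replicate numbers came from the titles. All members may be named, with values by animal where they changed at least 2-fold or hold an animal far from its group. Other genes come from lists, named where called with a difference of at least 0.5 or as the best known member. Some more list genes are named where they limit a count or a sum. The members, lists, motifs and alternatives were chosen with earlier results of these data known. Alternatives varied the filter, centring, variance model, array weights, replicate block, probe sets and arrays. Plots were made in Python 3.11.15 (matplotlib 3.10.9).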

Additional observations from a re-analysis of the deposited data

Results flagged for a closer look

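In each group of 6 animals the highest or lowest value was set against the rest. Of 96 such groups, 9 had an animal whose gap to its nearest neighbour exceeded Dixon's 95% critical value of 0.625 of the range, where chance gives about 1 in 20. Ugt2b had control 4 at 12.65, with the other controls at 5.64 to 5.79. Ugt1a2 had PCK 6 at 10.25, with the others at 9.06 to 9.35. PCK 3 was low in 2 UGT2 genes, Ugt2a3 at 9.27 with the others at 10.12 to 10.33, and Ugt2b1 at 8.85 with the others at 10.30 to 10.80. Gsta2 had control 6 at 10.33, with the others at 11.13 to 11.50, Sult1e1 had control 5 at 12.84, with the others at 13.04 to 13.14, and Sult2al1 had control 3 at 9.49, with the others at 10.18 to 10.58. Ugt1a9 and Gstm6l lie below the median of the table and their gaps are small. Ugt1a9 was 5.25, 5.30, 5.28, 5.25, 5.32 and 5.23 in PCK livers, against 5.22, 5.39, 5.38, 5.40, 5.37 and 5.35 in control livers, with control 1 apart. Gstm6l was 5.28, 5.34, 5.31, 5.31, 5.32 and 5.34 in PCK livers, against 5.33, 5.31, 5.31, 5.32, 5.27 and 5.33 in control livers, with control 5 apart.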

How the results depend on the processing

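Over 20 alternatives, 39 of 48 members kept their side of the threshold in each setting that tested them, 19 of them called, and no called member changed sign. Leaving out any 1 array gave 5731 to 6367 called genes, against 6362, 7 to 9 members higher, against 7, and 13 to 14 lower, against 15. Deviations of same-numbered arrays from their group means were weakly correlated (-0.137 to 0.165). Such correlations cannot decide whether the numbers pair the animals. With the numbers as a replicate block 5423 genes were called, 7 members higher and 15 lower. Of 6 PCK arrays 1, PCK 6, correlated best with its own number. With the block Ugt2b1 (adjusted p = 0.0907) and Gsta5 (0.0623) lost their calls and Ugt2b34 (0.0261) and Gstm7 (0.0494) gained one. With dim genes left out 8 members were higher and 14 lower among 37 tested. Ugt2b1 was not called in 11 settings and Ugt1a9 in 13 of the 19 that tested it. Gstm2, Ugt2b34, Sult1a1, Ugt1a7c and Sult5a1 were called in some settings. Gstm2 passed without PCK 3 or control 1, Ugt2b34 without PCK 3, control 4 or control 5, Sult1a1 without control 2 or control 4, Ugt1a7c without control 5 and Sult5a1 without PCK 4. Without both control 4 and PCK 3, an alternative added once the data had been seen, 9 members were higher and 15 lower. Centring on the brightest 25% of genes called 7 members higher and 16 lower by their mean, and 7 and 14 by their median, which was also added then. Without detection calls, the folds of Ugt2b, Gstm3 and Ugt1a3, and of Abcc3 outside the families, depend on 1 group near the bottom of the signal range.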

Other observations

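Some genes outside the symbol rule carry a current name of these families. The probe set that the platform lists as RGD1307603, whose number is the RefSeq ID of Gstp3, a pi-class GST gene, was 8.69, 9.41, 9.08, 9.71, 9.80 and 9.74 in PCK livers, against 11.69, 11.86, 11.72, 11.90, 11.62 and 11.69 in control livers. The groups were far apart, with a difference of -2.34 ± 0.18 (log2, SE; limma adjusted p = 2.77e-06), while Gstp1 did not pass. The probe set RGD1559960, with the ID of the sulfotransferase gene Sult1c2al1, lay at 5.18 to 5.33 in PCK livers, below the median of the table, and at 5.51 to 7.17 in control livers (-1.08 ± 0.27; adjusted p = 0.00834). Both genes were chosen after their values were seen.

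Control 4 shared the high Ugt2b signal of the PCK livers, 6.86 units above the next control, and over all 16592 genes it exceeded the 5 other controls by at least 1 unit in 2 genes, Ugt2b and Serpina3m (2.75 units). Among the 37 members whose mean lay above the median of the table, control 4 was the highest control in 15 and the lowest in 0, and PCK 3 was the lowest PCK liver in 11.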
